A study of Mus musculus with 6 samples.

Results

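The 10 transcripts described here encode hepatic carboxylesterases of 3 subfamilies: Ces1c, Ces1d, Ces1e, Ces1f, Ces1g, Ces2a, Ces2c, Ces2e, Ces3a and Ces3b. They were taken by gene symbol from a count table of 52323 genes, which also held 10 other carboxylesterase genes. The libraries were bulk RNA-seq profiles of damaged hepatocytes (dHeps) from the livers of AAV-TBG-Cre:Rosa-LSL-tdTomato mice. In these mice a virus carries Cre under the liver-specific thyroxine-binding globulin promoter, and Cre turns on the red fluorescent protein tdTomato in hepatocytes. All groups, the controls included, came from mice with CCl4 injury that were young adults when treatment began, and the methods describe a mixture of sexes. The cells were freed by collagenase perfusion without a stated sort for tdTomato, and were kept for 16 days in serum-free Hepatocyte Maintenance Medium. Controls received the solvent DMSO. In 3C the cells received CID755673 at 50 µM, which inhibits protein kinase D, GSK429286A at 2 µM and ETC-1002 (bempedoic acid) at 5 µM. In 5C they also received salidroside at 5 µM and forskolin at 2 µM, which activates adenylate cyclase, so the parts of salidroside and forskolin in any difference between 5C and 3C cannot be told apart. Each group had 2 libraries. The labels did not say that the replicates came from separate animals, so the p-values measure only the spread between these samples.

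Carboxylesterases are serine hydrolases that cut ester and amide bonds, and most of them stay in the lumen of the endoplasmic reticulum. In the liver they hydrolyse drugs and other foreign esters, and several also act on triacylglycerol and other neutral lipids that feed the assembly of very low density lipoprotein (VLDL). Rodents carry expanded clusters of these genes in tandem, so that several mouse enzymes correspond to a single human CES1 or CES2. Their transcription is known to respond to nuclear receptors such as the pregnane X receptor and the constitutive androstane receptor.

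All 10 members lie on chromosome 8. In the GENCODE annotation of GRCm39 the 5 Ces1 members stand on the minus strand, from the start of Ces1c at 93825643 to the end of Ces1g at 94063953. The Ces2 and Ces3 members stand on the plus strand, from the start of Ces2a at 105460630 to the end of Ces3b at 105820561. The positions printed beside each member's identifier are of the same build. The 250 bases before the annotated start are shown for 4 members, the Ces2 members because they are near neighbours that differed in response, and Ces1c because it had the largest estimated rise. The sequences come from the RefSeq table of GRCm38.p6 and are written 5′ to 3′ on the strand of the gene. Ces1c lies at chr8:93131284-93131533 (minus strand), Ces2a at chr8:104733753-104734002, Ces2c at chr8:104846818-104847067 and Ces2e at chr8:104926010-104926259 (plus strand). Capitals mark matches on either strand to any of 7 motifs. General promoter elements were searched as TATAAA, the TATA box, and, for the box of the same letters, as CCAAT. Half-sites of nuclear receptors were searched as AGGTCA and, for the kind that the pregnane X receptor binds, as AGTTCA. For factors of the hepatocyte the letters were GTTAAT for HNF1, for the forkhead family TGTTTAC and for C/EBP factors TTGCNNAA.
Ces1c: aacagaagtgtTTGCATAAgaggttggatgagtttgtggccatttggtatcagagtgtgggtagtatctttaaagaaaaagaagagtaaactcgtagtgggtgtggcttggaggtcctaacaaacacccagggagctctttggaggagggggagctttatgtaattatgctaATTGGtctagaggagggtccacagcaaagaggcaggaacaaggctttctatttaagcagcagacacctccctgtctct
Ces2a: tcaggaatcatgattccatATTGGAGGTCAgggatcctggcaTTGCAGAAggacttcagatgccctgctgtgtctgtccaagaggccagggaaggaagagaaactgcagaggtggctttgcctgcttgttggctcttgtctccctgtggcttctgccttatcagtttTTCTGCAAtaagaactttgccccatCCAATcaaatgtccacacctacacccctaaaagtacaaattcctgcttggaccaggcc
Ces2c: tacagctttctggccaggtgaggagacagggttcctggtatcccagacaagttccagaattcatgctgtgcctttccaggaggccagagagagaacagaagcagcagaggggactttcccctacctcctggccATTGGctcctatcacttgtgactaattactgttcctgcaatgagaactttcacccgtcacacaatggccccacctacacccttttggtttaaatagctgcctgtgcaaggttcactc
Ces2e: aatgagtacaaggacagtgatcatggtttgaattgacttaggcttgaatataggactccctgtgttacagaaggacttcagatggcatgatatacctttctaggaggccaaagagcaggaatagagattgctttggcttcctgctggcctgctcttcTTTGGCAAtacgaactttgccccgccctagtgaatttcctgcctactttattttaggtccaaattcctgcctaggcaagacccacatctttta

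Of the 10 members, 7 had an entry in this table, and Ces1d, Ces1f and Ces3a had none. The windows of Ces2a and Ces2c were identical at 70.0% of the bases after global alignment, those of Ces2a and Ces2e at 65.6% and those of Ces2c and Ces2e at 62.4%, while the other pairs among the 7 lay between 55.2% and 63.6%. AGGTCA occurred among the members in Ces2a alone, from base -226 to base -221 before the start, next to a CCAAT box on the opposite strand that ends at base -227. This half-site occurred in 14.0% of the 32851 RefSeq promoter windows. TTGCNNAA occurred in Ces1c, Ces2a and Ces2e, with 9.56% of all windows, and CCAAT in Ces1c, Ces1g, Ces2a, Ces2c and Ces3b, with 33.8%. TATAAA was found in Ces1g and Ces3b (12.4% of all windows) and GTTAAT in Ces3b (6.43%). No member window held AGTTCA (11.8% of all windows) or TGTTTAC (3.17%). These matches describe letters only.

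Library totals ranged from 65916573 to 69245895 units of estimated counts, and levels are given as counts scaled to these totals (CPM). A level of at most 12 units, or 0.173 to 0.182 CPM, was taken as the floor. The log2 CPM of replicates correlated over genes, which do not count as replicates, with r of 0.975 to 0.977, against 0.935 to 0.969 for libraries of different groups. Alb and the other 9 hepatocyte markers were above the floor in all libraries, and their summed level was 2352 and 2212 CPM in DMSO, 10204 and 10761 CPM in 3C, and 10090 and 14608 CPM in 5C. Macrophage markers (10 genes) summed to 8410 and 8607 CPM in DMSO, 2775 and 2769 CPM in 3C, and 1768 and 1769 CPM in 5C. The libraries labelled hepatocytes thus also held macrophage transcripts, most of all in DMSO. In bulk samples fewer cells of a type and less RNA per cell cannot be told apart, and the part of these shifts in the carboxylesterase results was not tested.

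Ces2a (ENSMUSG00000055730, chromosome 8, 105460630 to 105468266) was the member whose mean CPM rose furthest from DMSO to 5C. This enzyme hydrolyses acylglycerols, and its gene is a known target of the pregnane X and constitutive androstane receptors in mouse liver. Ces2a stood at 1.30 and 0.531 CPM in the DMSO libraries, at 7.81 and 6.85 CPM in 3C and at 38.8 and 50.6 CPM in 5C. The 3 groups did not overlap, and 3C lay between DMSO and 5C. The log2 fold change was 5.63 (SE 0.37, adjusted p = 6.94e-05) for 5C against DMSO, 2.97 (SE 0.36, adjusted p = 0.00136) for 3C against DMSO and 2.66 (SE 0.31, adjusted p = 0.00316) for 5C against 3C. The DMSO replicates differed by 2.44 times. Without DMSO replicate 1 the log2 fold change was 6.40 in 5C and 3.74 in 3C, and without DMSO replicate 2 it was 2.48 in 3C. Without 3C replicate 2 the difference between the cocktails was 2.57 with an adjusted p of 0.0512.

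Ces2e (ENSMUSG00000031886, chromosome 8, 105652848 to 105661304) is an enzyme of the same subfamily that is also made in the small intestine, and its fold changes had the smallest standard errors among the members tested. It stood at 7.36 and 6.25 CPM in DMSO, 24.6 and 27.4 CPM in 3C, and 43.3 and 42.9 CPM in 5C. All groups were apart. The log2 fold change was 2.68 (SE 0.12, adjusted p = 8.09e-07) in 5C and 1.90 (SE 0.12, adjusted p = 7.67e-06) in 3C. Between the cocktails the difference was 0.78 (95% interval 0.53 to 1.03, adjusted p = 0.00252), which passed the test but was under the limit of 1 set on the log2 scale for a call.

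Ces2c (ENSMUSG00000061825, chromosome 8, 105573700 to 105581115), which hydrolyses acylglycerols and is made in liver and intestine, followed another course. Its levels were 2.40 and 1.85 CPM in DMSO, 5.66 and 6.17 CPM in 3C, and 4.59 and 6.31 CPM in 5C. Both cocktails were above DMSO, and the 3C libraries lay within the range of the 5C libraries. Ces2c rose by 1.38 on the log2 scale (SE 0.25, adjusted p = 0.00313) in 5C and by 1.45 (SE 0.25, adjusted p = 0.00284) in 3C. The difference of 5C from 3C was -0.07, with a 95% interval of -0.62 to 0.49 and an adjusted p of 0.919. That interval leaves room for a difference in either direction but lies wholly below the interval of Ces2a in the same comparison, 1.92 to 3.41. The reads of Ces2c are the least certain of all members, as described with the sequence shared between paralogs.

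**Figure D1:**
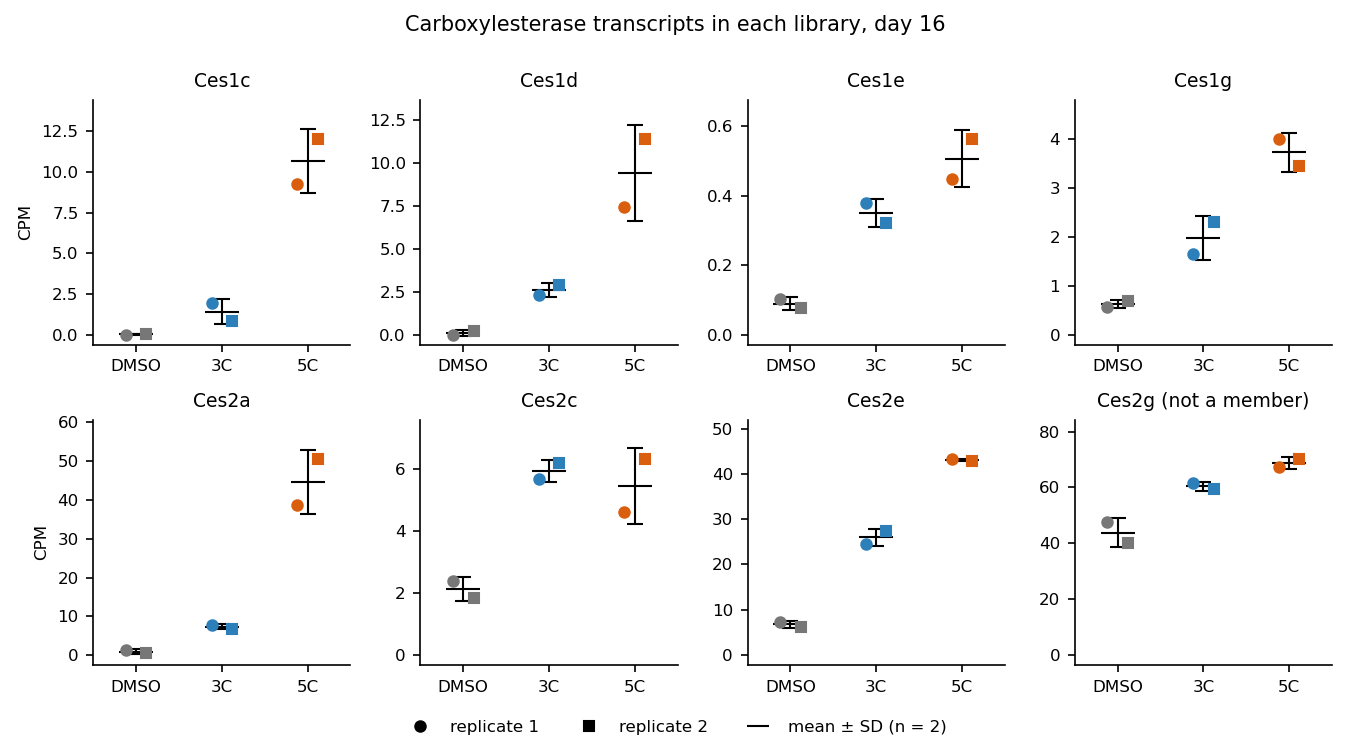
CPM of the 7 tested members and of Ces2g, which is not a member, in each library (circle, replicate 1; square, replicate 2), with the group mean and SD of 2 replicates; each panel has its own linear axis. Ces2a goes from 0.531 to 1.30 CPM in DMSO to 38.8 to 50.6 CPM in 5C, whereas Ces2c in 3C (5.66 and 6.17 CPM) lies within its range in 5C.

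Among the Ces1 members, Ces1c (ENSMUSG00000057400, chromosome 8, 93825643 to 93857942) was not detected above the floor in DMSO. Ces1c encodes the carboxylesterase that mouse liver secretes into blood plasma. It had 0 and 4 units (0 and 0.0607 CPM) in DMSO, 1.95 and 0.879 CPM in 3C, and 9.28 and 12.03 CPM in 5C. The groups did not overlap, and both DMSO libraries were under the floor. If 4 units stood for a fragment, the 5C libraries held 368 fragments and DMSO held 1, a ratio of 354 with a 95% counting interval of 63.2 to 14022. For 3C the same count was 47 fragments, a ratio of 46.5 (7.95 to 1876).

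The fitted log2 fold changes of Ces1c were 8.40 (SE 0.76, adjusted p = 0.000131) in 5C and 5.44 (SE 0.78, adjusted p = 0.0018) in 3C, and they hang on the few DMSO units. They moved to 12.53 and 9.57 without DMSO replicate 2, the library that held those units, and to 7.42 and 4.45 without DMSO replicate 1, and 3C replicate 1 left out gave 4.76 in 3C. Between the cocktails, where both groups are above the floor, Ces1c was 2.97 higher in 5C on the log2 scale (SE 0.50, adjusted p = 0.00841). The 3C replicates of Ces1c differed by 2.21 times, and leaving out replicate 1 or 2 of 3C gave 3.65 or 2.51. Without 5C replicate 2 it was 2.74, with an adjusted p of 0.0686.

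Ces1d (ENSMUSG00000056973, chromosome 8, 93892693 to 93924466), the triacylglycerol hydrolase that supplies lipid for VLDL, was likewise scarce in DMSO. Its levels were 0 and 0.243 CPM in DMSO, 2.34 and 2.90 CPM in 3C, and 7.46 and 11.4 CPM in 5C, again without overlap between groups. Ces1d rose with a log2 fold change of 6.29 (SE 0.93, adjusted p = 0.00427) in 5C and 4.39 (SE 0.91, adjusted p = 0.0184) in 3C. These values became 12.35 and 10.46 without DMSO replicate 2, and 5.28 and 3.38 without DMSO replicate 1. In 3C the call was lost without 3C replicate 1 (adjusted p = 0.0966) and without 3C replicate 2 (adjusted p = 0.116). The difference of 5C from 3C was 1.90 with a 95% interval of 0.18 to 3.62, and its adjusted p of 0.163 missed the threshold, although it passed without DMSO replicate 1 (adjusted p = 0.00314) or without DMSO replicate 2 (adjusted p = 0.00287).

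Ces1g (ENSMUSG00000057074, chromosome 8, 94028683 to 94063953), an enzyme that in liver is linked to lipid synthesis and VLDL secretion, was above the floor throughout. Its levels were 0.566 and 0.683 CPM in DMSO, 1.66 and 2.30 CPM in 3C, and 4.01 and 3.45 CPM in 5C. The groups were apart in the same order as for Ces2a. Ces1g rose with a log2 fold change of 2.59 (SE 0.33, adjusted p = 0.000346) in 5C and 1.63 (SE 0.32, adjusted p = 0.00552) in 3C. For 5C against 3C the value was 0.96 (95% interval 0.27 to 1.65), with an adjusted p of 0.0775.

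Ces1e (ENSMUSG00000061959, chromosome 8, 93927846 to 93956247) encodes egasyn, which holds β-glucuronidase in the endoplasmic reticulum. Its levels were 0.104 and 0.0759 CPM in DMSO, under the floor, 0.377 and 0.322 CPM in 3C, and 0.449 and 0.563 CPM in 5C. Neither cocktail overlapped DMSO, but the log2 fold change missed the threshold both in 5C (2.49, SE 0.82, adjusted p = 0.0508) and in 3C (1.91, SE 0.82, adjusted p = 0.134). DESeq2 gave Ces1e an adjusted p of 0.0177 in 5C against DMSO.

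The other 3 members could not be read at this depth. Ces1f (ENSMUSG00000031725, chromosome 8, 93981999 to 94006375), a relative of Ces1d, had 5 and 0 units in DMSO, 8 and 0 in 3C, and 0 and 5 in 5C. Ces3a (ENSMUSG00000069922, chromosome 8, 105775223 to 105789243) had 4 and 0 units in DMSO, 0 in both 3C libraries, and 7 and 12 in 5C. Ces3b (ENSMUSG00000062181, chromosome 8, 105810253 to 105820561) had 0 units in every library, where a count of 0 allows a level of up to 0.173 to 0.182 CPM. Ces3a and Ces3b encode carboxylesterases of adult mouse liver, and neither was detectable above the floor in any group, so no fold is given.

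In counts over the 10 members, 6 were called higher in 5C against DMSO, where 7.3% of the 19135 genes tested were called higher, and 6 in 3C against DMSO, where 5.83% were. In 5C against 3C, 2 members (Ces1c and Ces2a) were called higher, beside 2.16% of all genes, and no member was called lower in these 3 comparisons by edgeR or by DESeq2, nor lower at an unadjusted p under 0.05 (all genes called lower: 4.42%, 3.62% and 0.852% in the same order). The libraries did not overlap and were higher for 7 tested members in 5C against DMSO (30.9% of all genes), for 7 in 3C against DMSO (33.6%) and for 6 in 5C against 3C (23.2%). Of the 7 members that passed the filter on low counts, 3 (Ces1c, Ces1d and Ces1e) passed only through the cocktail libraries, so that a higher level there was a condition of their being tested. The comparisons with DMSO share the DMSO libraries, so a low DMSO value of a member enters both. Over all genes tested the median log2 fold change was 0.00, 0.01 and -0.01 in the same order.

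**Figure D2:**
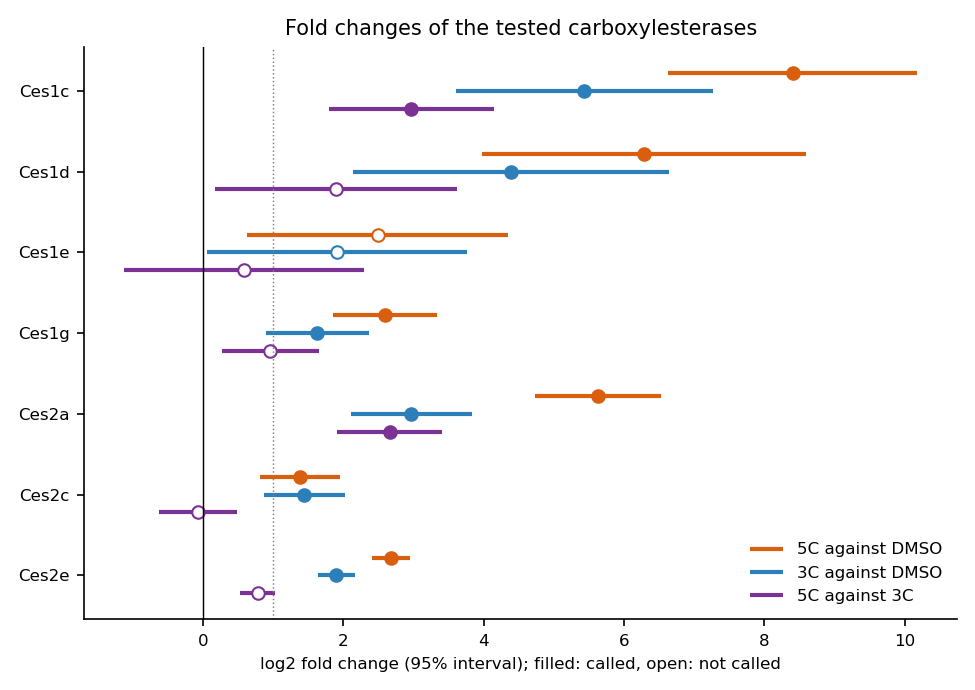
Log2 fold changes (points) with 95% intervals (lines) for the 7 tested members in 3 comparisons; filled points were called (adjusted p under 0.05 and log2 fold change beyond 1, dotted line). In 5C against 3C, Ces1c and Ces2a were called, at 2.97 and 2.66, and Ces2c sat at -0.07.

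The order of the members, compared on the authors' scale that also divides by transcript length (FPKM), was not the same in the 3 groups. In DMSO the highest member was Ces2e with 3.03 ± 0.466 FPKM (SD, n = 2), followed by Ces2c with 0.975 ± 0.214 and Ces2a with 0.448 ± 0.298, all without overlap, and Ces2a overlapped Ces1g (0.233 ± 0.0242). In 3C the order was Ces2e at 11.3 ± 1.04 FPKM, Ces2a at 3.34 ± 0.25, Ces2c at 2.68 ± 0.202 and Ces1d at 1.17 ± 0.193, again without overlap. Ces1g (0.741 ± 0.177) and Ces1c (0.684 ± 0.361) overlapped in 3C.

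In 5C the Ces2a level of 20.6 ± 3.45 FPKM overlapped that of Ces2e at 19.1 ± 0.655. Ces1c at 5.25 ± 0.842 FPKM and Ces1d at 4.25 ± 1.17 overlapped each other, and both were above Ces2c at 2.48 ± 0.506 FPKM, which had been above them in DMSO and 3C. Ces1g followed at 1.41 ± 0.176 FPKM and Ces1e at 0.24 ± 0.0593. The members together reached 5.53 and 4.16 FPKM in DMSO, 19.5 and 20.9 in 3C, and 49.7 and 57.1 in 5C.

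Beside the members, Ces2g had the highest FPKM of all carboxylesterase genes in DMSO and 3C, and in 5C it overlapped Ces2a. Ces2g is named here because it sets the make-up of the family. Its levels were 47.5 and 40.1 CPM in DMSO, 61.4 and 59.3 CPM in 3C, and 67.4 and 70.2 CPM in 5C, with log2 fold changes of 0.67 (adjusted p = 0.000486) and 0.43 (adjusted p = 0.00707) against DMSO, under the limit for a call. Ces2g made up 72.9% and 73.5% of carboxylesterase FPKM in DMSO, 48.9% and 46.7% in 3C, and 30.0% and 27.6% in 5C. The share of Ces2a went from 3.10% and 1.40% through 9.02% and 7.87% to 25.2% and 28.9%. Thus the family in DMSO was mostly Ces2g, and in 5C it was spread over Ces2g, Ces2a and Ces2e.

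Ces1b, which is not a member, had 0 CPM in both DMSO libraries and 0.217 and 0.477 CPM in 5C. The mean of the 5C libraries, 0.347 CPM, was 1.92 times the mean floor of the DMSO libraries (0.180 CPM). That mean rests on 15 and 33 units, and the ratio leaves out their counting error. Of the 10 other carboxylesterase genes 5 were tested, and Ces1b was called in 5C against DMSO, where 7.3% of all genes were called higher. Ces1b reached the filter on low values in the 5C libraries alone, so it could be tested only because it was high there. For 3C against DMSO and 5C against 3C edgeR and DESeq2 each called 0 of these 5, with 2 and 1 at an unadjusted p under 0.05 in edgeR.

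**Figure D3:**
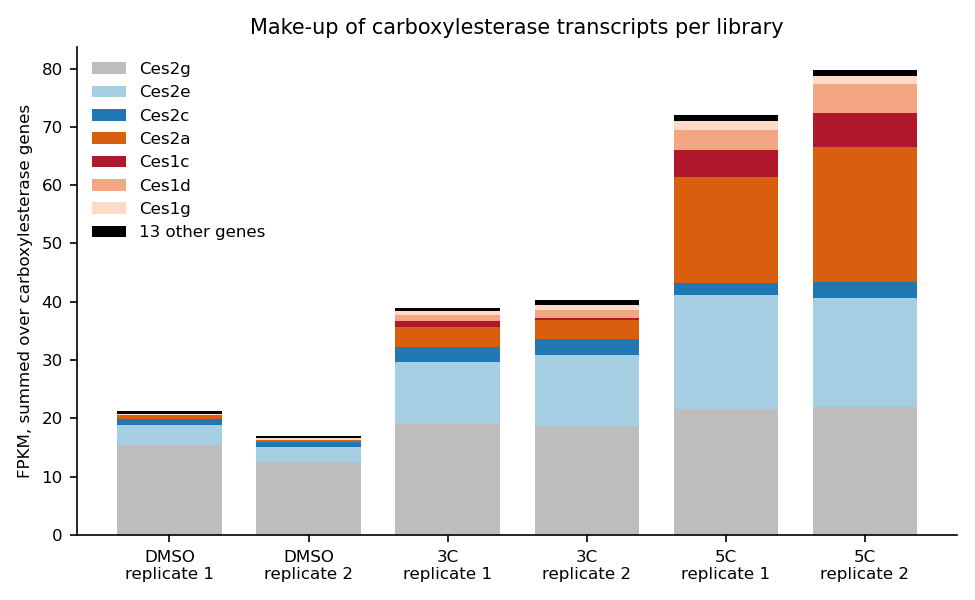
FPKM of the carboxylesterase genes stacked for each library, from 0, with 13 genes of low level pooled as other. The stack rises from 21.2 and 17.0 FPKM in DMSO to 72.0 and 79.7 FPKM in 5C, and the Ces2g share falls from 72.9% and 73.5% to 30.0% and 27.6%.

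A sum over a subfamily does not depend on how reads were divided among the genes in it, but it does depend on reads that were discarded or given to similar genes outside it. The sum of all Ces1 genes was higher by 4.61 on the log2 scale in 5C (SE 0.28, adjusted p = 4.41e-06), by 2.65 in 3C (SE 0.26, adjusted p = 0.000111), and by 1.96 in 5C against 3C (SE 0.24, adjusted p = 0.0013). The sum of all Ces2 genes, in which Ces2g predominates, was higher by 1.61 in 5C (SE 0.09, adjusted p = 3.45e-06), by 0.86 in 3C (SE 0.09, adjusted p = 0.000164) and by 0.75 in 5C against 3C (SE 0.09, adjusted p = 0.00128). The values of 0.86 and 0.75 passed the test but not the limit on the fold. With Ces2a, Ces2c and Ces2e alone the Ces2 sum was higher by 3.26, 1.96 and 1.30, and with Ces2g left out of the full sum by 3.20, 1.92 and 1.29, which passed both.

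Near-identical sequence touched some members far more than others. Of all 150-base words of the Ces2c transcript, 48.1% also occurred in another gene, as did 69.6% of its 50-base words, mostly in the annotated gene Gm64957 (66.6%), which is not analysed here, and in the pseudogene Ces2d-ps (35.9%). An exon of an annotated gene on the opposite strand also overlapped Ces2c, and strand use was not stated. Ces2d-ps itself had 0.323 ± 0.00636 CPM (SD, n = 2) in DMSO, 0.793 ± 0.246 in 3C and 0.882 ± 0.206 in 5C. Ces2a shared 17.4% of its 50-base words and 3.29% of its 150-base words, the former mainly with Gm7208, which had 0 units in each library, and the latter with Gm63300, which is not analysed here.

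Ces1c shared 17.6% of its 50-base words, most of them with Ces1b, and none of its 150-base words. Ces3a and Ces3b shared 13.7% and 19.1% of their 50-base words with each other, and each is overlapped by a gene on the opposite strand. Ces2e (3.30%), Ces1e (2.70%), Ces1g (1.46%), Ces1f (1.09%) and Ces1d (0.525%) shared few 50-base words and no 150-base word. With 10% of 50-base words as the limit, Ces2c, Ces2a, Ces1c, Ces3a and Ces3b are therefore uncertain in how their reads were assigned, and Ces1d, Ces1e, Ces1g and Ces2e are less so. Ces2a and Ces2c shared 0.133% of the 50-base words of Ces2a.

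**Figure D4:**
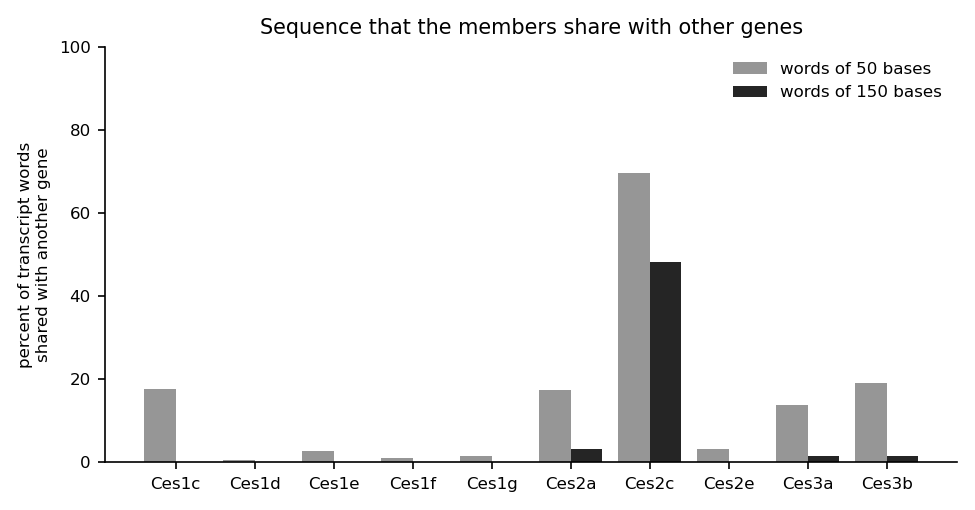
Percent of the 50-base words (grey) and 150-base words (black) of each member's longest transcript that also occur in a transcript of another gene. Ces2c stands apart with 69.6% and 48.1%, and Ces1d, Ces1e, Ces1f, Ces1g and Ces2e are under 4%.

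Since the summed level of hepatocyte markers also rose, the members were set against that sum. The unit here is CPM of the member per 1000 CPM summed over 10 hepatocyte markers, and no test was run on it. Alb gave most of that sum, with 1357 and 1182 CPM in DMSO, 7402 and 7769 in 3C, and 6766 and 10400 in 5C. The scale therefore follows Alb in large part. Ces2a stood at 0.551 and 0.240 in DMSO, 0.765 and 0.636 in 3C, and 3.85 and 3.46 in 5C, so that 5C lay apart from 3C. Ces1c stood at 0 and 0.0274, 0.191 and 0.0817, and 0.920 and 0.823 in the same order, and Ces1d at 0 and 0.110, 0.229 and 0.270, and 0.739 and 0.782. For Ces1c, Ces1d and Ces2a the groups kept their order without overlap on this scale.

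Ces2c went the other way, from 1.02 and 0.837 in DMSO to 0.555 and 0.573 in 3C and 0.455 and 0.432 in 5C. Ces2e overlapped between DMSO (3.13 and 2.83) and 5C (4.29 and 2.94), and 3C was below both (2.41 and 2.54). Ces1g was 0.241 and 0.309 in DMSO, lower in both 3C libraries (0.163 and 0.214), and 0.397 and 0.236 in 5C, which overlapped DMSO. Ces1e (0.0300 to 0.0445 over all libraries) overlapped between DMSO and each cocktail. Its 3C libraries (0.0370 and 0.0300) lay below its 5C libraries (0.0445 and 0.0386). The direction in 3C against DMSO thus flips with this denominator for the members Ces1g, Ces2c and Ces2e, as it does for Ces2c in 5C. Ces1c, Ces1d and Ces2a are higher in both cocktails on either scale. For Ces2g, which is not a member, it flips in both cocktails. Ces2g stood at 20.2 and 18.1 in DMSO, 6.02 and 5.51 in 3C, and 6.68 and 4.80 in 5C. Against Alb alone Ces2a was 0.955 and 0.449 per 1000 CPM in DMSO, 1.05 and 0.881 in 3C, and 5.73 and 4.86 in 5C, so that its 3C range overlapped DMSO there.

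**Figure D5:**
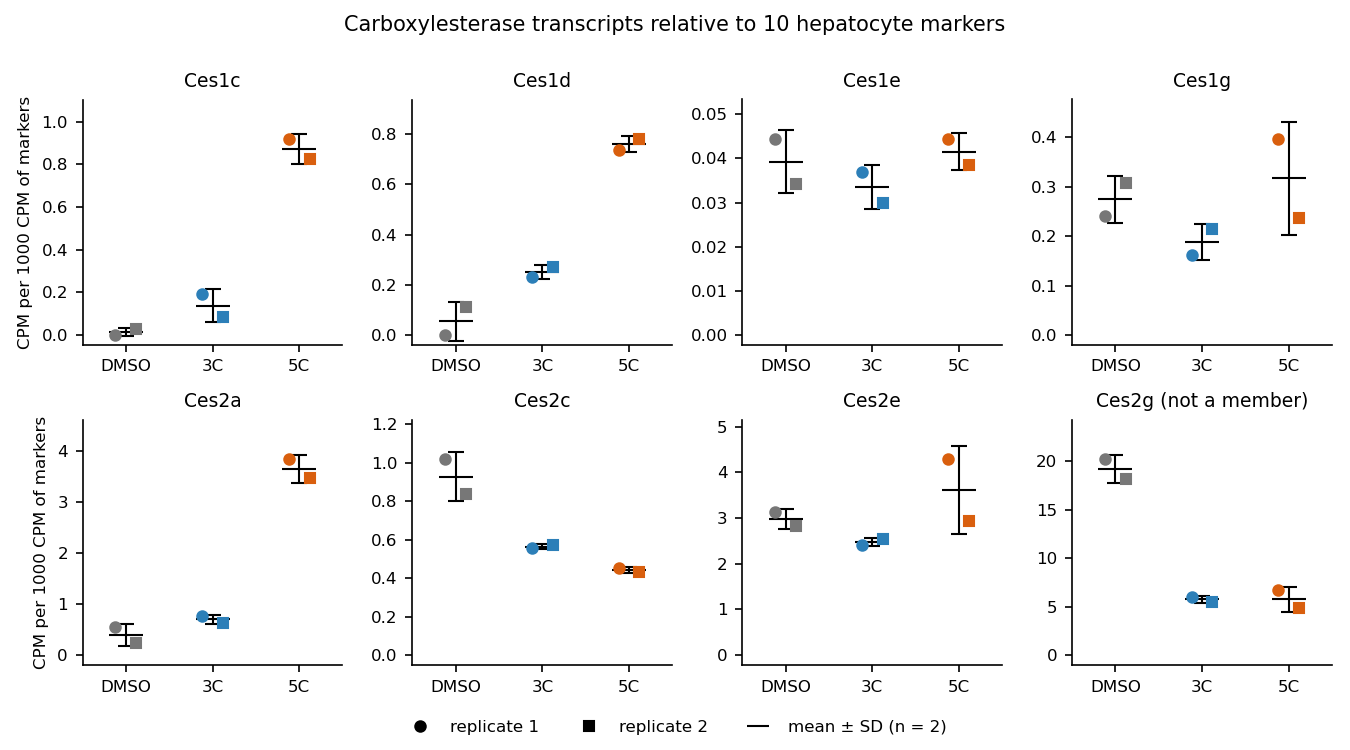
CPM of the 7 tested members and of Ces2g per 1000 CPM summed over 10 hepatocyte markers, per library (circle, replicate 1; square, replicate 2), with the mean and SD of 2 replicates; each panel has its own linear axis. Ces1c, Ces1d and Ces2a are highest in 5C, Ces2c is lowest there, and Ces1e, Ces1g and Ces2e overlap between DMSO and 5C.

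Other esterases and neutral lipid hydrolases did not move as a block. Of 19 genes 18 were tested, and 6 were called higher and 1 lower in 5C against DMSO, 5 higher and 1 lower in 3C against DMSO, and 2 higher in 5C against 3C, with medians of 0.20, 0.22 and 0.00. Among all genes tested, 7.3%, 5.83% and 2.16% were called higher in the same order, and 4.42%, 3.62% and 0.852% lower. Aadac, a microsomal esterase that like the carboxylesterases acts on drugs and lipids, stood at 0.759 and 0.546 CPM in DMSO, 6.99 and 5.83 CPM in 3C, and 11.4 and 13.3 CPM in 5C. It rose by 4.26 in 5C (SE 0.25, adjusted p = 3.46e-06), by 3.26 in 3C, and by 1.00 between the cocktails (adjusted p = 0.0141). Lipc, the hepatic lipase, Pnpla3, an acylglycerol lipase, and Bphl, a valacyclovir-cleaving hydrolase, were called higher in both cocktails against DMSO. Pnpla3 had 10 and 0 units in DMSO, under the floor. It passed the filter on low counts only through the cocktail libraries, so a higher level there was a condition of its being tested.

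Mgll, the monoacylglycerol lipase, rose by 1.38 in 5C against DMSO and by 1.01 in 5C against 3C. Bche, the butyrylcholinesterase of plasma, was higher in 3C by 1.35 and was not called in 5C (0.66). Pon2, a lactonase, fell by 1.08 and 1.02 on the log2 scale in 5C and 3C against DMSO. Lipe and Abhd5, which act in lipolysis in many tissues, had values of -0.04 and -0.03 in 5C against DMSO, with adjusted p of 0.864 and 0.833.

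Of 4 endoplasmic reticulum retention partners, 1 was called lower in each cocktail against DMSO and none higher. This was Gusb, the β-glucuronidase that egasyn retains, which went from 601 and 641 CPM in DMSO to 256 and 267 CPM in 3C and 198 and 185 CPM in 5C. Its log2 fold change was -1.68 in 5C, with an adjusted p of 8.09e-07. Most macrophage markers fell in the same libraries, and their part in the fall of Gusb was not tested. Kdelr1, Kdelr2 and Kdelr3, receptors that return proteins to the endoplasmic reticulum, were not called in the 3 comparisons. Medians of the 4 genes were 0.16 and -0.30 for the 5C and 3C libraries against DMSO and 0.27 between the cocktails. Of all genes tested, 4.42% in 5C and 3.62% in 3C were called lower than in DMSO.

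Among 9 VLDL assembly genes 8 were tested, and 5 were called higher in 5C against DMSO, 6 in 3C against DMSO and 1 in 5C against 3C, none lower, with medians of 1.49, 1.55 and 0.03. Among all genes tested, 7.3%, 5.83% and 2.16% were called higher in the same order. Apoc3, an apolipoprotein of VLDL, stood at 3.19 and 2.21 CPM in DMSO, 18.2 and 19.1 CPM in 3C, and 84.7 and 100.1 CPM in 5C. Its log2 fold changes were 5.12, 2.76 and 2.36, so Apoc3 was the gene of this list that was also called between the cocktails. Mttp, the microsomal triglyceride transfer protein, rose by 1.62 in 5C and 1.34 in 3C. Dgat2, which makes triacylglycerol, rose by 1.35 and 1.83, and Cideb, a protein of lipid droplets and VLDL, by 2.72 and 2.62. In 5C against 3C Dgat2 had a value of -0.48 (adjusted p = 0.00316), under the limit on the fold. Dgat1 and Fitm2 had values of 0.04 each in 5C, with adjusted p of 0.808 and 0.799.

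Of 11 receptors and factors known to act on carboxylesterase genes, 4 were called higher in 5C against DMSO, 5 in 3C against DMSO and none lower, with medians of 0.91 and 0.65. Over all genes 7.3% and 5.83% were called higher in these comparisons. Between the cocktails edgeR and DESeq2 each called 0 of the 11 (median -0.12). In edgeR 2 were higher and 4 lower in 5C at an unadjusted p under 0.05. The 4 lower ones also passed the adjusted p and missed only the limit on the fold, while 0 higher ones passed it. Nr1i2, the pregnane X receptor, stood at 7.79 and 7.74 CPM in DMSO, 31.4 and 30.8 CPM in 3C, and 27.7 and 30.0 CPM in 5C. The cocktails were both above DMSO, and the difference between them was -0.06 with an adjusted p of 0.808. Nr1i3, the constitutive androstane receptor, rose by 2.26 in 5C and 1.52 in 3C, and the difference of 0.74 between the cocktails had an adjusted p of 0.293. Ppara rose by 1.69 and 2.04 and Hnf4a by 1.04 and 1.39. Nr1h4, the bile acid receptor, rose by 1.08 in 3C, and its value of 0.96 in 5C was under the limit on the fold. Cebpa had a value of -0.57 in 5C against DMSO (adjusted p = 0.00026), under the limit.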

How the data were processed

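Total RNA of 6 cultures was sequenced as paired reads from NEBNext Ultra RNA libraries. The submitters' processing notes name featureCounts, Subread, DESeq2 and GRCm39, with no version or role. Strand use, annotation release and the handling of reads with several matches are not given in the sources used here. The authors deposited estimated counts per gene, which are whole numbers without normalization, and FPKM, in which the authors divided by gene length and sequencing total. Among the deposited estimated counts the value 4 was in excess (4816 entries, beside 3121 of 3 and 2303 of 5), but 1 was also frequent, so 1 unit may not be 1 fragment, and the floor of 12 units assumes 4 units for each of 3 fragments. Floors and the intervals of fragment ratios cover counting error only, whereas those of log2 fold changes come from the fit and include the spread between replicates.

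Counts of all 6 libraries were tested by quasi-likelihood in edgeR 4.0.16 (glmQLFTest, R 4.3.3, robust, TMM, filterByExpr on the group), which kept 19135 genes and left 3 residual degrees of freedom. Variation between replicates, as edgeR's common coefficient, came to 18.4%. Calls needed p under 0.05 after Benjamini-Hochberg adjustment over all genes and a log2 fold change beyond 1 in either direction, and the adjusted p-values are of this test unless another is named. Standard errors (SE) were derived from the F statistic. Members, lists and tests were chosen with earlier results of these data known. All 10 members are named, and of the other lists mainly genes whose mean reached 1 CPM in some group. Ces1b, Ces2d-ps, Clec4g, Adipoq, Plin1, Lep and Cfd are named although they did not reach it. Marker lists covered hepatocytes, macrophages and 5 other cell types. Shared sequence was counted as words of the longest transcript of each gene in GENCODE (GRCm39). Steps were tested on simulated data. Alternatives were RLE and upper quartile normalization, other filters, DESeq2 1.42.0, a replicate block, fits to the groups compared alone, other limits on the fold, counts divided by 4, limma 3.58.1 on log2(FPKM + 1) and log2(FPKM + 0.1), other subfamily sums and leaving out each library. The sum without Ces2g was an addition made once values were known. Matplotlib 3.10.9 drew the figures.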

Additional observations from a re-analysis of the deposited data

How the results depend on the processing

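Over all genes, edgeR called 2242 in 5C against DMSO, 1809 in 3C against DMSO and 576 in 5C against 3C. With no limit on the fold change the counts were 5485, 4689 and 2423, with a test against a log2 fold change of 1 they were 1160, 771 and 38, and with limma on log2(FPKM + 1) they were 1231, 958 and 261. Leaving out 1 library gave 381 to 642 genes in 5C against 3C, the lowest without 5C replicate 2.

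For the members, 3 were called in 3C against DMSO both by the test against a log2 fold change of 1 and by limma on log2(FPKM + 1), in place of 6. In 5C against 3C, 1 member in place of 2 was called when at least 10 counts were required in every library, a filter that Ces1c does not pass, and edgeR called 0 against a log2 fold change of 1, where 2 had an unadjusted p under 0.05 and DESeq2, run without that limit, gave 4 an adjusted p under 0.05. Leaving out 1 library gave 1 to 3 called members there, with 1 without 3C replicate 2 or 5C replicate 2 and 3 without either DMSO replicate. Ces1d was the member gained without a DMSO replicate, and it also passed in 5C against 3C in the fit to those groups alone (adjusted p = 0.00299) and with counts divided by 4 (adjusted p = 0.00724). The estimate for Ces2c in 5C against 3C ran from -0.34 to 0.15 when a library was left out, and turned positive without 3C replicate 2 and without 5C replicate 1. The Ces2 sum passed the limit on the fold for members only (1.96 in 3C against DMSO, 1.30 in 5C against 3C) and with Ces2g left out (1.92 and 1.29). The cause of these shifts was not tested.

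Deviations of same-numbered libraries correlated over genes at -0.03, 0.00 and 0.02, so no strong effect shared by replicate number was seen. Whether same-numbered cultures shared an animal or preparation is not stated and cannot be told from these values. With the replicate block 6, 6 and 2 members and 2125, 1737 and 536 genes were called in the 3 comparisons. Of the alternative values of single members, 341 kept direction and side of the threshold, 15 lost the call, 8 gained it and 2 reversed. Ces1f, Ces3a and Ces3b were at or under the floor throughout, and whether more depth would show them was not tested.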

Other observations

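Markers of other cell types moved unevenly between the cultures. Over all genes, 7.3% were called higher and 4.42% lower in 5C against DMSO, and 5.83% and 3.62% in 3C against DMSO. In 5C against DMSO 8 of 10 macrophage markers were called lower and none higher (median -2.07), as in 3C against DMSO (median -1.62), whereas 9 of 10 hepatocyte markers were called higher in each, with medians of 2.40 and 1.96. Under the limit on the fold, the macrophage marker Cd14 was higher in 5C (0.60, adjusted p = 0.000734) and in 3C (0.86, adjusted p = 0.000112). Arg1, a hepatocyte marker, was lower in 5C (-0.85, adjusted p = 0.000269) and in 3C (-0.33, adjusted p = 0.0422), also under the limit. Cholangiocyte markers (6 genes) had 3 called higher in 5C and 4 in 3C, with a summed level of 2389 to 3706 CPM over all libraries. Stellate and fibroblast markers (8 genes) had 2 called higher in 5C, and 1 higher and 2 lower in 3C, and summed to 2507 and 2647 CPM in 3C against 3498 to 4518 CPM in the other libraries. Mesothelial markers (6 genes) had 3 called higher in 5C. In 3C against DMSO edgeR and DESeq2 each called 0 of them. Krt8 and Msln were higher by edgeR's adjusted p (2 genes, also the number at an unadjusted p under 0.05) but under the limit on the fold. The 6 markers summed to 1418 to 2383 CPM. Endothelial markers had 4 called higher and 1 lower of 7 tested in 5C, and 2 higher and 1 lower in 3C, with sums of 182 to 452 CPM and Clec4g at or under the floor throughout. Of the adipocyte markers Adipoq, Plin1, Lep and Cfd did not exceed the floor anywhere, and the 1 tested was called higher in both cocktails. In 5C against 3C, 3 mesothelial, 2 endothelial and 1 hepatocyte marker were called higher, and 1 macrophage marker lower. Over all genes, 2.16% were called higher and 0.852% lower in that comparison. The part of all these markers in the carboxylesterase values was not tested.

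Afmid, a kynurenine formamidase among the other esterases, had the widest replicate gap seen among the named genes of that list in 3C, with 4.30 and 12.3 CPM. It was at 3.32 and 1.502 CPM in DMSO and 5.89 and 7.18 CPM in 5C, and was not called in the 3 comparisons. Afmid was chosen after its values were seen.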
